A study of Drosophila melanogaster with 3 samples.

Results

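Sites bound by a Dbx-eGFP fusion protein were examined at 9 trithorax group and Brahma complex genes of Drosophila melanogaster, out of 13945 protein-coding genes on the 6 main chromosomes and arms. The genes were Trl, osa, brm, mor, Snr1, kis, trx, ash1 and ash2, and all 9 were found by symbol in the annotation. They were chosen by name with earlier peak assignments from the same lists in view, so which of them carry a site is a description of that choice and no test was made of it. A site was given to a gene when its summit was nearest to a transcription start site (TSS) of the gene or lay in the gene body extended by 2 kb to either side. By this rule 24 of the 4943 summits of the conservative peak list belonged to the 9 genes. A further 6 sites of the same genes passed the authors' threshold in the ranked list paired with that list by its content. They are missing from the thresholded lists used here and are described separately.

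Binding was measured by chromatin immunoprecipitation with sequencing (ChIP-seq). The material was whole embryos of 8 to 24 h from the strain Dbx-GFP, a transgenic stock expressing Dbx, a homeodomain transcription factor of embryonic interneurons, as a fusion with eGFP, and chromatin was recovered with an antibody against GFP. The 3 samples were biological replicates of this 1 group, so no condition was compared with another. A whole embryo mixes all tissues, and the lists do not say which cells a site comes from. The 3 replicate lists held 3701, 3353 and 2519 peaks, and the read depth behind them is unknown, so no counting interval could be given. Peak signal is the authors' own enrichment value and is compared within a list only. Reproducibility is given as the authors' −log10 of the irreproducible discovery rate (IDR), which was capped at 5 in these lists and had to reach 2, an IDR of 0.01, for a peak to be kept.

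Trithorax group proteins keep developmental genes, the Hox genes above all, in an active state through cell divisions, and they were found as counterparts of the Polycomb group of repressors. Several of them form the Brahma complex, an ATP-dependent remodeller that slides and evicts nucleosomes, while others methylate histones or bind DNA. In the embryo most are supplied by the mother and are expressed broadly.

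The sequences at 10 of these sites are given as the 121 bases centred on the summit, on the plus strand of the dm6 assembly. They are the strongest peaks of the set, the missing peak at the mor promoter and that in trx, and weaker peaks at the Trl, kis and HDAC3 promoters, so that strong and weak sites can be read side by side. The mor promoter window also lies beside the start of Hel89B. Each window lies outside annotated exons. Capitals mark the 8 short words that were searched on both strands, which were GAGAG (GAGA factor), TAATTA (homeodomain core), TATCGATA (DREF), CGATA (BEAF-32, also contained in TATCGATA), GGTCACAC (M1BP), CAGCTG (an E-box), CAGGTAG (Zelda) and GCCAT (Pleiohomeotic core). The words were counted within 100 bp of each summit, so a word counted for a site can lie outside its window here.
Trl intron (chr3L:14759440-14759560): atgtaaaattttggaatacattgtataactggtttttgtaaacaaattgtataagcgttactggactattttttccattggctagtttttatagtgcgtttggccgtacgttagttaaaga
Trl internal promoter (chr3L:14758144-14758264): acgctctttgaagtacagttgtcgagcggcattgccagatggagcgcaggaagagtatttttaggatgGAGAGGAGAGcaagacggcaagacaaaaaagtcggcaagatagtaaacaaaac
brm and Arl1 promoter (chr3L:15982954-15983074): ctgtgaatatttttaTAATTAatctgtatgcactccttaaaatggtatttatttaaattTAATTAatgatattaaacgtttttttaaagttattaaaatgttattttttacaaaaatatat
osa intron, upstream site (chr3R:17704336-17704456): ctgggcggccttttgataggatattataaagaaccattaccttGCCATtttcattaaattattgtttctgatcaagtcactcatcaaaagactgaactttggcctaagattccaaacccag
osa intron, downstream site (chr3R:17700497-17700617): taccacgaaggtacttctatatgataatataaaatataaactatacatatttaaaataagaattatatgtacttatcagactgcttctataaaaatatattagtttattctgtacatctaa
mor promoter (chr3R:15973029-15973149): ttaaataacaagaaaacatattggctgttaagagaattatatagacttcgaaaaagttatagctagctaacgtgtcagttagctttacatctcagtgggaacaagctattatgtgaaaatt
HDAC3 promoter beside Snr1 (chr3R:5474606-5474726): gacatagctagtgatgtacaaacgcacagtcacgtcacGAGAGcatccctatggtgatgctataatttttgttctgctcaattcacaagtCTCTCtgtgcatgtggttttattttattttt
kis promoter (chr2L:250847-250967): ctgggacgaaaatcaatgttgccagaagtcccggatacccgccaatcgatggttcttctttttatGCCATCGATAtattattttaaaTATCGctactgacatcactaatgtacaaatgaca
trx intron (chr3R:14283803-14283923): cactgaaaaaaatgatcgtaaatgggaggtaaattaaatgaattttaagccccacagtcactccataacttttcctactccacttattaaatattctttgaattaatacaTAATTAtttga
CG14100 promoter beside ash1 (chr3L:19590560-19590680): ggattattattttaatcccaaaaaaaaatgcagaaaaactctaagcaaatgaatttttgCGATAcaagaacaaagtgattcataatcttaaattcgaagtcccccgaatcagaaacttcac

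In the conservative list 8 of the 9 genes had a summit by the assignment rule, the exception being mor, against 40.8% of all protein-coding genes. Of the 9 genes, 5 span 10 kb or more, and all 5 had a summit, where 60.3% of all genes of that length did. When a summit had to have its nearest TSS at the gene, 5 members remained (Trl, osa, kis, trx and ash2), against 23.9% of all genes. A summit within 250 bp of the gene's own TSS was found at 4 members (Trl, brm, kis and ash2), against 20.7% of all genes. A peak present in all 3 replicate lists was found at 6 members (Trl, osa, brm, Snr1, trx and ash1), against 20.4%. At least 4 summits were found at 3 members (Trl, osa and kis), against 2.45%. Because the members were chosen from these lists, nothing is read from how these counts stand to the shares beside them.

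The sites were spread unevenly over the 9 loci. The member bodies with their 2 kb extensions covered 174 kb and held 13.8 conservative summits per 100 kb. The same territory of all protein-coding genes held 4.54 and the chromosomes as a whole 3.69. Nothing is read from this difference either, because the members were chosen from these lists. The 24 summits also count an overlapping ash2 pair as 2. Of the 24 summits, 16 lay inside a member's body, 14 were nearest to a TSS of a member and the other 10 were nearest to the TSS of a neighbouring gene alone. Introns held 12 summits (50% against 30.5% of all conservative summits), promoters 11 (45.8% against 51.4%) and a 5' UTR 1 (4.17% against 1.29%). The intronic summit 1364 bp upstream of Trl lay outside the Trl body, in an intron of a neighbouring gene. No member summit was classed as coding exon, 3' UTR or intergenic. The class shares depend partly on the assignment rule, which takes in every summit of a member's body. They also depend on the class order, in which a 5' UTR was taken before a coding exon. Of the 11 promoter summits, 6 were within 250 bp of the member's own TSS and 5 only at the promoter of a neighbour.

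**Figure D1:**
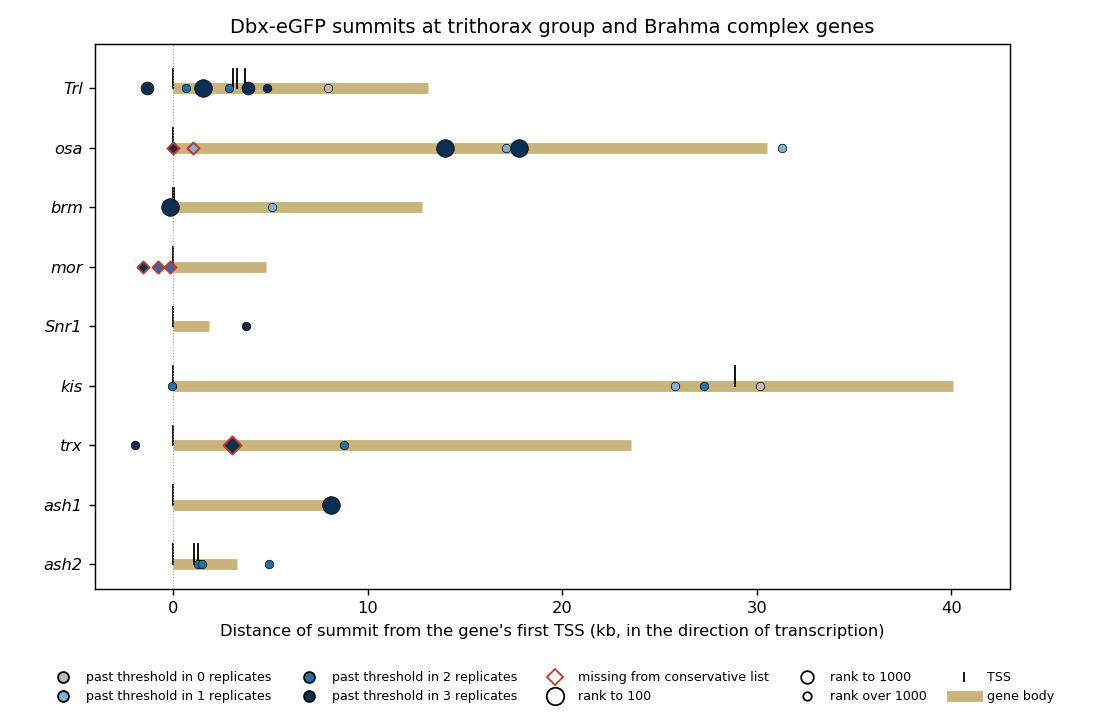
Position of each site along the 9 genes, as the distance in kb from the gene's first TSS in the direction of transcription; bars are gene bodies, ticks are TSSs, shade gives the number of replicates in which the site passed the threshold, and symbol size gives the signal rank. Red diamonds are the 6 sites missing from the conservative list; the sites of osa spread over more than its 30.5 kb body, and those of mor all lie upstream of its TSS.

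Of the Brahma complex genes, brm encodes the ATPase that drives the remodeller, and it had the strongest site of the complex. Its main peak (chr3L:15982850-15983169) had a signal of 1193.2 and ranked 39 of 4943. The signal was 276.3 in replicate 1, 475.9 in replicate 2 and 477.2 in replicate 3, at ranks 79, 32 and 23. The replicates thus placed it near the top of every list, lowest in replicate 1. The summit lay 145 bp upstream of brm and 121 bp from the TSS of Arl1, which encodes a small GTPase and is transcribed away from brm, so that the site cannot be assigned to either gene. The window shown for it was made of A and T for 85.1% of its bases and held TAATTA at 2 places. A second peak, in an intron of brm and 739 bp from the TSS of the nested gene CG17028, had a signal of 132.0 at rank 2593 and passed the threshold in replicate 3 alone, with a −log10 IDR of 2.08 against 1.78 and 0.88 in replicates 1 and 2.

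The gene osa encodes the ARID-domain subunit that defines one form of the Brahma complex. Its body of 30.5 kb, with a single TSS, held a pair of strong intronic peaks far from that TSS. The upstream one (chr3R:17704269-17704556) lay 13954 bp inside the gene, with a signal of 810.9 and rank 91, and its signals in the 3 replicates were 304.6, 264.8 and 249.7. The downstream one (chr3R:17700395-17700750) lay 17793 bp inside, and the TSS nearest to it was that of CG31249 at 13486 bp. It had a signal of 817.5 and ranked 90, and its replicate signals were 269.3, 254.5 and 299.1. Their order was not fixed, since the upstream peak ranked above the downstream one in replicates 1 and 2 (66 and 112 against 85 and 127) and below it in replicate 3 (99 against 71). A weaker peak lay close to the downstream one, with signal 112.1 at rank 3248, and passed in replicate 1 alone. The fourth conservative peak of osa lay past the end of the gene, 17 bp from the TSS of CG31249, with a signal of 89.6 at rank 4074, and passed in replicate 2 alone.

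At the osa start site itself a peak is missing from the thresholded lists used here but stood in the ranked ones. It spanned chr3R:17718160-17718559, its summit lay 10 bp upstream of the TSS, and its signal of 186.9 would have placed it at rank 1559. Its −log10 IDR was 2.55, 3.75 and 3.54 in replicates 1 to 3, above the threshold in each. It was the only one of the 30 sites with TATCGATA within 100 bp of its summit. A second missing peak, 1015 bp inside the gene, had a signal of 97.3 and passed in replicate 1 alone, with values of 2.54, 1.11 and 0.27.

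For mor, which encodes a core subunit around which the complex is built, every site was of the missing kind. A peak 176 bp upstream of its only TSS (chr3R:15972889-15973288) had a signal of 140.3 and −log10 IDR values of 0.48, 3.05 and 2.24, so that it passed in replicates 2 and 3. Its summit lay between that TSS and the TSS of Hel89B, a gene read in the opposite direction that starts within 1000 bp of mor. The site therefore cannot be assigned to either gene. A peak 788 bp upstream, in the 5' UTR of Hel89B, had a signal of 130.7 and passed in replicates 1 and 2 with 2.41 and 2.20, against 0.13 in replicate 3. The strongest of the 3, 1545 bp upstream and in an intron of Hel89B, had a signal of 195.1 and passed in all 3 replicates with 3.12, 3.23 and 2.97. Its summit was 1160 bp from the TSS of Hel89B and thus nearer to that gene than to mor.

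Snr1, the gene of another core subunit, had its only conservative peak outside the gene, 3740 bp past its TSS and 66 bp from the TSSs of HDAC3, a histone deacetylase gene, and CG45100. That peak (chr3R:5474466-5474865) had a signal of 162.7 at rank 1896, with signals of 53.0, 57.4 and 60.0 in the replicates, and was present in all 3 lists. The Snr1 promoter, where mRpL44 starts within 1000 bp, was bound past the threshold in replicate 2 alone among the replicates. There the summit lay 43 bp upstream of the TSS with a signal of 57.5, rank 2155 of 3353. The longest series-level list of 6387 peaks also held it, with a signal of 116.1 at rank 3195, and the conservative list did not. The second longest list of 3896 peaks held it too, at rank 2821. That list had a further peak 180 bp past the Snr1 TSS, with a signal of 47.7 at rank 3588. The further peak overlapped the first, so the pair cannot be counted as separate sites.

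Of the 4 Brahma complex genes, then, brm, osa and mor had a site within 250 bp of their own TSS once the missing peaks were counted, and Snr1 had one only in lists other than the conservative one. Those of brm and mor lay between head-to-head genes, so they cannot be assigned to 1 gene. The kis gene, which encodes a CHD-family remodeller outside the Brahma complex, is the longest of the set at 40.1 kb and had 4 conservative summits, all weak. The one at its distal promoter (chr2L:250707-251106), 84 bp upstream of the TSS, had a signal of 175.7 at rank 1675. Its replicate signals were 58.0 and 65.1 in replicates 1 and 2, and in replicate 3 its −log10 IDR of 1.91 fell just short of the threshold. The other 3 lay in introns around the internal TSS, 3045 and 1584 bp before it and 1322 bp after it. Their signals were 120.8, 103.5 and 91.7, and they passed in replicate 3 alone, in replicates 1 and 2, and in no replicate. No site of kis passed in all 3 replicates.

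**Figure D2:**
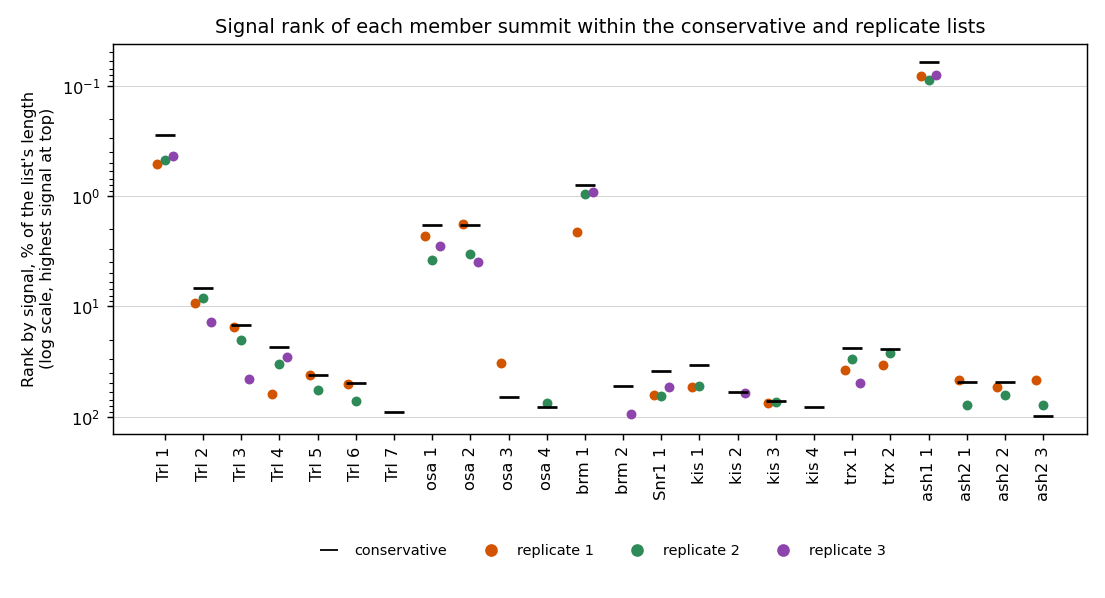
Signal rank of the 24 conservative member summits, as the percentage of each list's length on an inverted log axis. Black bars are the conservative list and points the replicate lists that hold the site. Sites are numbered within each gene by signal in the conservative list, strongest first, which is not always the order of the text. The peaks beside ash1, in the Trl intron, at brm and in the osa introns stay within the first 4% of every list, while the weaker sites are often absent from a replicate.

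The histone methyltransferase genes differed in where they were bound. The ash1 gene, which encodes a SET-domain methyltransferase, had a single peak and it was the strongest of all 24. It spanned chr3L:19590424-19590807 with a signal of 3017.0 at rank 3, and its replicate signals were 899.9, 1052.5 and 1098.2 at ranks 3, 3 and 2. The peak sat beyond the 3' end of ash1, 8135 bp from the ash1 TSS and 96 bp from the TSS of CG14100, so that its place in the set rests on the rule that extends a gene body by 2 kb. The ash1 promoter, where Taf6 starts within 1000 bp, had no peak past the threshold in any of the 7 lists used here. The 3 peaks with ranks most like it over the conservative and replicate lists, among those found in all of them, were those of Ugalt (ranks 2, 2, 2 and 3), mRpL41 (4 in each) and Tcs5 (6, 7, 6 and 6), at distances of 0.352, 0.371 and 0.738 on the log10 rank scale. This likeness is in rank alone.

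The gene trx, which gives the group its name and encodes a histone methyltransferase, had its strongest site in the first part of its body, and that site is missing from the thresholded lists used here. It spanned chr3R:14283721-14284015, 3040 bp inside the gene in an intron, with a signal of 742.3 that would have ranked 119. Its signals in the ranked lists of replicates 1 to 3 were 251.9, 244.2 and 245.0, and its −log10 IDR was at the cap of 5 in all 3. The conservative list held another intronic peak 8796 bp inside trx (chr3R:14277907-14278306), with a signal of 214.3 at rank 1215. That peak passed in replicates 1 and 2 with 3.47 and 3.93 and not in replicate 3, where the value was 1.18. The last one lay 1993 bp upstream of trx and 175 bp from the TSS of red, with a signal of 217.1 at rank 1191, and passed in all 3 replicates. No peak past the threshold lay within 250 bp of the trx TSS.

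The ash2 gene encodes a subunit shared by the COMPASS family of methyltransferase complexes, and all of its sites were weak. A peak 24 bp upstream of an internal TSS (chr3R:24651193-24651592) had a signal of 138.5 at rank 2406, and its replicate signals were 63.0 and 49.1 in replicates 1 and 2. A listed peak with a summit 176 bp past a TSS overlapped it, had a signal of 8.2 at rank 4860, and matched the same peaks of replicates 1 and 2, so the pair cannot be counted as separate sites. The remaining one lay 3632 bp past the nearest ash2 TSS and 111 bp from the TSS of CG6695, with a signal of 137.9 at rank 2422. Replicate 3 held no ash2 peak past the threshold, where the highest −log10 IDR was 1.39.

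Trl encodes GAGA factor, a DNA-binding protein of the group that opens promoters at GAGAG repeats, and it had more sites than any other member, with 7 conservative summits over a body of 13.1 kb with 4 TSSs. The strongest (chr3L:14759282-14759701) had a signal of 1685.0 at rank 14, and its replicate signals were 494.4, 601.0 and 614.6 at ranks 19, 16 and 11. Its summit lay in an intron, 1538 bp upstream of an internal Trl TSS at which CG42507, a gene nested in Trl, also starts. In replicates 2 and 3 the summit lay 1534 bp past the first Trl TSS, which was then the nearest of the gene's own. A promoter peak 114 bp past an internal TSS followed with a signal of 444.1 at rank 335, and its replicate signals were 145.1, 169.5 and 137.2. The third, at 287.4 and rank 737, lay 1364 bp upstream of Trl and 385 bp from the TSS of Mgat4a. The fourth, 1129 bp past a TSS, had 219.4 at rank 1168, and these 4 passed in all 3 replicates.

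The weaker Trl sites were a promoter peak 242 bp upstream of the internal TSS shared with CG42507, at 153.5 and rank 2068, and an intronic one 678 bp past the first TSS, at 136.5 and rank 2473. Both passed in replicates 1 and 2 and stood at −log10 IDR values of 1.53 and 1.77 in replicate 3. The last, in a 5' UTR 4242 bp past a TSS, had a signal of 72.0 at rank 4518, passed the conservative threshold with 2.03 and was in no replicate list. Both sites of replicates 1 and 2 held GAGAG, which the promoter site shows as a tandem pair in the window above. The strong intronic window held none of the 8 words.

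Across the 9 genes, 10 of the 24 summits were in all 3 replicate lists, 8 in 2, 4 in 1 and 2 in none, where 36.2%, 21.1%, 22.3% and 20.5% of all conservative peaks fell in those classes. Replicates 1 and 2 each held 19 of the 24 and replicate 3, the shortest list, held 12. These counts, and those of promoter summits, take the overlapping ash2 pair as 2. With the pair taken once there were 23 summits, 10 of them in promoters and 5 within 250 bp of the member's own TSS, 18 were in each of replicates 1 and 2, and 7 were in 2 lists. With replicate 1 or replicate 2 left out, 10 of the 24 summits and 5 of the 11 in promoters were in both other lists, and with replicate 3 left out 18 and 10 were. Of the promoter sites 5 of 11 were in all 3 lists, and of the intronic ones 5 of 12. The 5 summits that ranked 1 to 100 were all in all 3 lists. In the conservative and replicate ranked lists, just inside the threshold stood the 5' UTR site of Trl at 2.03 and the brm intron in replicate 3 at 2.08. Just outside stood peaks at trx in the conservative ranked list and at osa in replicate 3, each at 1.94, and the kis promoter in replicate 3 at 1.91. For the longest series-level list, peaks at Trl and kis stood inside at 2.05 and peaks at kis and trx outside at 1.93.

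**Figure D3:**
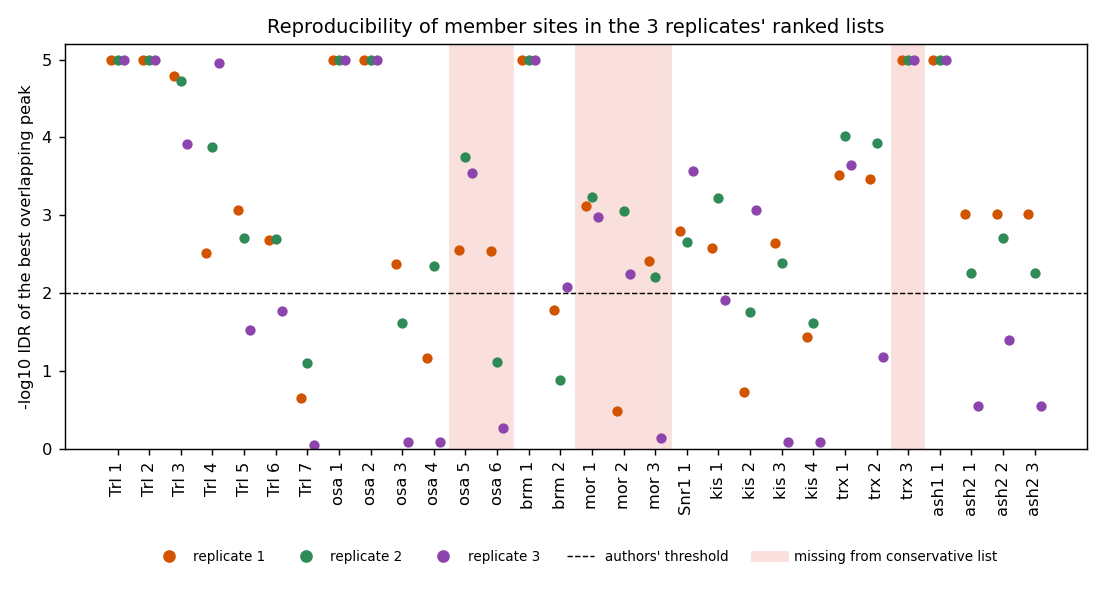
−log10 IDR of the best overlapping peak in each replicate's ranked list for the 30 member sites, with the authors' threshold of 2 as a dashed line and the 6 missing sites shaded. The trx intron is at the cap of 5 in every replicate although it is missing, and replicate 3 passes the threshold at 12 of the 24 conservative sites.

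The missing peaks of the set were all at osa, mor and trx, which lie on 3R. Over the whole conservative list 152 peaks past the threshold were missing, 97 of them on 3R, and 6 were at members. The 3 replicate lists missed 132, 101 and 76, of which 5, 5 and 4 were at members. With these peaks put back, 9 of the 9 members had a summit, against 41.3% of all genes, and 6 (Trl, osa, brm, mor, kis and ash2) had one within 250 bp of their own TSS, against 21.2%. By the ranked lists 7 members had a peak past the threshold in all 3 replicates, the exceptions being kis and ash2, against 20.7% of all genes.

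The words were counted within 100 bp of the 24 summits and in 48 equally wide flanking windows, 1000 bp upstream and downstream of each. GAGAG was present at 9 summits (37.5%), against 27.4% of all conservative summits, 22.9% of the member flanks and 22.2% of all flanks. This order did not hold under every setting. Among summits in the lists of both other replicates, GAGAG was at 2 of 10 (20% against 22.2% of all such summits) with replicate 1 or replicate 2 left out, and at 7 of 18 (38.9% against 25.7%) without replicate 3. Among the 1000 strongest peaks it was at 1 of 7 (14.3% against 20.4%). In windows of 50 bp it was at 4 summits (16.7% against 14.2%) and in windows of 250 bp at 17 (70.8% against 54.2%). It lay at sites of Trl, osa, Snr1, kis, trx and ash2, and not at brm or ash1. CGATA was present at 8 (33.3% against 34.4% of all summits) and GCCAT at 7 (29.2% against 28.8%). TAATTA, the core that many homeodomains bind, was present at 3 (12.5%), against 13.1% of all summits and 20.8% of the member flanks, and those 3 were a pair of Trl sites and the brm promoter. TATCGATA, GGTCACAC, CAGCTG and CAGGTAG were at none of the 24, where 5.34%, 3.3%, 11.2% and 0.87% of all summits held them. A word match is a description of the letters, and no match says only that these letters are not in the window.

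Base composition was also set against rank, a comparison chosen after the sequences had been seen. Within 50 bp of the summit, A and T made up a median of 70.3% (66.3% to 85.1%) of the bases at the 5 member summits ranked 1 to 100, and 57.4% (42.6% to 78.2%) at the other 19. Those ranges overlap. The 100 strongest summits of the whole list had a median of 71.3% and the others 60.4%. Windows 1000 bp downstream on the plus strand, the only side measured, had a median of 56.4% over the whole list and 55.4% for the members. Among promoter summits of the whole list the medians were 71.3% for the 100 strongest and 57.4% for the rest, and among intronic ones 71.3% and 64.4%. The medians of the strong member sites and of the strong sites of the whole list, which include them, were thus close. The ash2 promoter site, at 42.6%, was the lowest of the members.

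**Figure D4:**
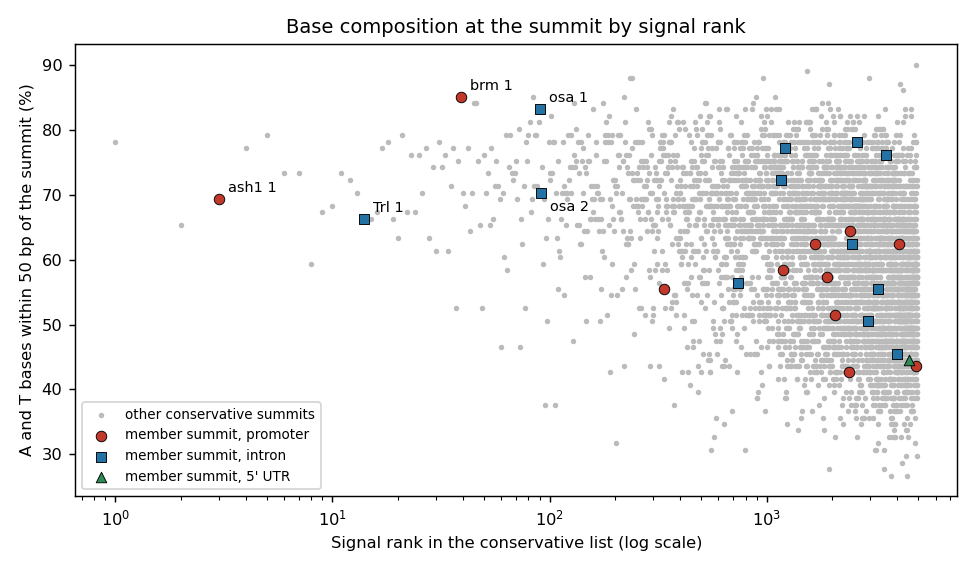
Share of A and T bases within 50 bp of each conservative summit against its signal rank on a log axis, with the 24 member summits coloured by feature class and the other summits in grey. The member sites ranked 1 to 100 lie between 66.3% and 85.1%, where the 100 strongest summits of the list range from 37.6% to 85.1%.

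Genes of related chromatin machinery were counted by the same rule and lists, without a test. Among other Brahma complex genes 7 of 10 had a conservative summit and 2 a peak in all 3 replicates, and the best ranked was Act5C, the actin that is also a subunit, at 689. Among COMPASS and TAC1 genes the counts were 10 and 5 of 14, led by wds, a shared COMPASS subunit, at rank 147, where the nearest TSS was that of egh. Among genes of the ISWI, CHD and NURF remodellers they were 6 and 3 of 9, led by the histone chaperone gene Caf1-55 at rank 11, where the summit lay at the Art3 promoter, 3947 bp from the Caf1-55 TSS. Among other trithorax group genes they were 14 and 9 of 15, led by tara at 49 and by MRG15 at 152, the latter at the Cp190 promoter. The Polycomb group, the opposing set, had 11 and 9 of 17, led by ph-p at rank 9, phol at 44, Psc at 105 and Pc at 124. The phol summit was at the promoter of CG3552, and the Pc summit was at that of CG11309, 13443 bp from the Pc TSS. All of these lists, like the members, are set beside a share of 40.8% of all genes with a summit and 20.4% with a peak in all 3 replicates.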

How the data were processed

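ChIP-seq peak lists of 3 biological replicates of 1 group, and 4 thresholded and 4 ranked series-level lists, were used on the dm6 assembly named in the labels. The signal of each peak, the −log10 IDR of the ranked lists and the summit offset are the authors' deposited values. The sources used here name no aligner or peak caller, nor the replicates compared in each series-level list. In each ranked list 8 per-sample columns were not used, and a control named in the labels was not analysed here.

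Each series-level thresholded list was paired with the ranked list that held all its peaks past the threshold. Where several did, that with the fewest such peaks was taken, so this pairing was inferred. Peaks past a −log10 IDR of 2 in a ranked list but absent from its thresholded list were called missing. Genes and TSSs came from Ensembl release 115, sequences from the RefSeq dm6 assembly. No peak or gene passed a chromosome end, and 99.83% of 30593 start codons read ATG. Each summit was given 1 class, with promoter (at most 250 bp from a protein-coding TSS) taken first, then untranslated regions and coding exons, then introns. Overlap was 1 bp or more. With 1 group, no test was made and no pairing of replicates was possible. The replicates are separate samples by their labels, and depth is unknown. Functions were tested on simulated data, with Python 3.11.15, numpy 2.4.6 and matplotlib 3.10.9. Members, lists and words were chosen with earlier results of these data known. The genes named are all members, genes sharing a site or start region with them, up to 4 best-ranked genes of each related list, and the 3 nearest in rank to the ash1 peak. Cmi and lid were matched as Lpt and Kdm5, and calypso was not matched.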

Additional observations from a re-analysis of the deposited data

How the results depend on the processing

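The count of 8 members with a conservative summit became 4 with the 1000 peaks of highest signal, 5 by nearest TSS alone and 4 within 1000 bp of a TSS, and stayed within 1.5 times in the other 8 of 11 alternatives. The 6 members with a peak in all 3 replicates became 2 by nearest TSS alone and 2 within 1000 bp of a TSS, and stayed within 1.5 times in the other 11 of 13. The setting with missing peaks put back in all lists, the count of the ash2 pair as 1 site and the GAGAG shares of all summits under each setting were chosen after seeing the data. The 24 summits became 7, 14 and 7 under the 1000 strongest peaks, nearest TSS alone and 1000 bp rules, and the 11 promoter summits 3, 5 and 6, and 5 with a promoter of 100 bp. The 9 GAGAG summits became 1 with the 1000 strongest peaks, 3 within 1000 bp of a TSS, 4 in windows of 50 bp and 17 in windows of 250 bp. Requiring a peak in the lists of both other replicates, with 1 replicate left out in turn, gave 10 to 18 summits, 5 to 10 in promoters and 2 to 7 with GAGAG. The lower counts came with replicate 1 or 2 left out, where the short list of replicate 3 had to hold the peak. No paired analysis was possible because there is 1 group and no test.

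Read depth is unknown, so whether a weak site absent from a replicate list was below detection there cannot be told. A summit between head-to-head genes cannot be assigned to either.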
